A study of Homo sapiens with 21 samples.

Results

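The DNA replication and G1/S genes are 42 human genes whose products prepare replication origins, open and copy the DNA, supply its building blocks or drive cells from G1 into S phase. They were chosen by function and named by symbol, and were found by matching the Ensembl identifiers of the count table to symbols. All 42 were among the 37637 features of the table, and all 42 were among the 17951 features that passed the filter on low counts. The raw count of a member in a library ran from 37 for CCNE2 to 16553 for MCM3. The RNA came from HepG2, a human hepatocellular carcinoma cell line, sequenced as poly(A)-selected cDNA in 7 groups of 3 cultures. Control cells were given 0 µM caffeine and treated cells 0.01, 0.1, 1, 10, 100 or 1000 µM, each for 24 h. Every group, control included, was held without serum in DMEM during exposure, after removal of medium with fetal bovine serum. Caffeine is a methylxanthine that blocks adenosine receptors and phosphodiesterases and, at high concentration, the kinases ATM and ATR.

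Origins are licensed in G1, when the origin recognition complex, CDC6 and CDT1 load the MCM helicase onto DNA. At the start of S phase cyclin E with its kinase and the CDC7 kinase with DBF4 let CDC45 and the GINS complex join that helicase, and polymerases then copy both strands with the help of the PCNA clamp. E2F transcription factors, held back in resting cells by retinoblastoma proteins, switch on many of these genes, and their RNA is widely used as a sign of proliferating cells, in liver cancer among other tissues.

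The libraries held 23502519 to 44815552 counts each, over 23409 to 24754 features with at least 1 count. Mitochondrial mRNAs differed between libraries of the same dose, and clustering by them split the 21 libraries into sets A (11 libraries), B (7) and C (3). In set A were the control, 0.01 and 0.1 µM groups whole, with replicates 1 and 2 of 1 µM. The third replicate of 1 µM, the 10 µM group, the second replicate of 100 µM and the first and second replicates of 1000 µM made up set B. The remaining replicates of 100 µM (1 and 3) and of 1000 µM (3) made up set C. The share of counts from mitochondrial genes was between 9.93% and 14.2% for set A, between 4.70% and 4.93% for set B and between 11.7% and 12.8% for set C. No control library was in set B or C and no library at 10 µM or above was in set A, so dose and library set are partly confounded, and each role below gives the calls that ended with the library set as a term in the model, with values within sets at the end. The design text calls the 3 samples of a dose biological replicates, without saying how the cultures were kept apart, so p-values measure the spread between these samples.

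Of the hepatocyte and hepatoma markers all 11 were expressed in every library, with a summed level of 30180 to 44870 CPM (CPM are counts per 1000000, here on library sizes scaled by the trimmed mean of M-values, TMM). The blood marker CD3E was at 0 in all 21 libraries and PTPRC at no more than 0.0383 CPM, and the sum of the 3 blood markers found did not exceed 0.995 CPM. The endothelial markers VWF and CDH5 summed to at most 0.284 CPM. The fibroblast and stellate markers COL1A1, COL1A2 and DCN did not exceed 0.0591 CPM in any library. PDGFRB, the other marker of that list, was expressed, and the sum of the list ran from 3.04 to 23.5 CPM. The cholangiocyte markers KRT7 and KRT19 summed to between 75.5 and 356 CPM, nearly all of it from KRT19.

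Promoter windows from RefSeq (build GRCh38.p14, 250 bases before to 50 after a start site, 300 in all) were given for 37 members, which had 49 windows. The search covered 4 E2F words, TTTCCCGC, TTTCGCGC, TTTGCCGC and TTTGGCGC, on both strands, with overlapping matches counted. An E2F word stood in 22 of the 49 windows (44.9%), against 1164 of all 35116 windows (3.31%). By gene this was 21 of 37 members (56.8%), against 3.99% of all genes with a window. CCAAT stood in 57.1% of member windows and 34.6% of all windows, the GC box GGGCGG in 77.6% and 45%, and TTTGAA, the cell cycle homology region of many mitotic genes, in 4.08% and 15.2%. The member windows were also richer in G and C, with a median of 67.7% against 58.7%. MCM4, MCM5, GINS4, RPA2 and CCNE2 had no window. Below are 5 windows, read 5′ to 3′ with E2F words in capitals, chosen after the values were seen to set members with large changes beside CDC7, which was called at neither high dose. The GINS1 window lies at chr20:25407423-25407722, plus strand, GINS2 at chr16:85688905-85689204, minus strand, and E2F1 at chr20:33686336-33686635, minus strand. The PRIM1 window lies at chr12:56752274-56752573, minus strand, and the second of the CDC7 windows at chr1:91500862-91501161, plus strand.
GINS1: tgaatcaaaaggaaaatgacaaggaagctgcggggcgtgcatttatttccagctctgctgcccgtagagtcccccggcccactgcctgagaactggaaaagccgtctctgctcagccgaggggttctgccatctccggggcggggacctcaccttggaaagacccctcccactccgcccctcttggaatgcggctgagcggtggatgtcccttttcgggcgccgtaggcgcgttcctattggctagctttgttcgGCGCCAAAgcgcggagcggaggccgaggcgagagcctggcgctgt
GINS2: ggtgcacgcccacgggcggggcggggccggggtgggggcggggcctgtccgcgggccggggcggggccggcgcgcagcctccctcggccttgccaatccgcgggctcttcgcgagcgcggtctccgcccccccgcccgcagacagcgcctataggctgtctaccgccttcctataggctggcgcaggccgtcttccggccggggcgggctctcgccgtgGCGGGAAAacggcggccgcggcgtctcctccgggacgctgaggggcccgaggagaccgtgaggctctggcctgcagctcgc
E2F1: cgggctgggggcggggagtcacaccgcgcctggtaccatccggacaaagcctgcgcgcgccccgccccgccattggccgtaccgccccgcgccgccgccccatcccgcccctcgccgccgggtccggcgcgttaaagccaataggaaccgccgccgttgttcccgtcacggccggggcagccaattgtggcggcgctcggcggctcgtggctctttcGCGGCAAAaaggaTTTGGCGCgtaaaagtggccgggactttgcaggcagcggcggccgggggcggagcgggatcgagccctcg
PRIM1: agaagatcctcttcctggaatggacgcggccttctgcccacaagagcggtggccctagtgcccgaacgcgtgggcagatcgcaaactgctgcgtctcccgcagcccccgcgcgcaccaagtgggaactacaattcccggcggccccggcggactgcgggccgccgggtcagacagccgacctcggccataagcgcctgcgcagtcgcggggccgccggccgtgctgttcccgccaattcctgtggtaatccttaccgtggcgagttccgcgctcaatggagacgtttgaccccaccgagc
CDC7: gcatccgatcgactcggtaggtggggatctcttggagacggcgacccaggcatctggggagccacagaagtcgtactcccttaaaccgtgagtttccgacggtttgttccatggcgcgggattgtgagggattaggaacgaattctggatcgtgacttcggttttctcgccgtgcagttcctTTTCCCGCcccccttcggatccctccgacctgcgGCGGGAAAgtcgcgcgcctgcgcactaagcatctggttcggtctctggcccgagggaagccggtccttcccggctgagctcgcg
GINS1 and GINS2 have 1 word each, E2F1 has 2, the PRIM1 window has none, and this CDC7 window has 2. A match describes the letters only and shows no binding, and a window without these exact words is not shown to lack a site.

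Control cells already expressed every member, at levels that differed widely per kilobase (kb) of exon. Length-scaled levels were highest for the sliding clamp PCNA, at 131.6 CPM per kb, followed by MCM3 at 63.5, the thymidylate synthase TYMS at 39.4 and MCM7 at 23.7. The lowest were GINS3 at 0.848 CPM per kb and the cyclin CCNE2 at 0.412. The subunits of the MCM hexamer, which join in equal number, differed in mRNA level per kb, with MCM3 at 63.5, MCM7 at 23.7, MCM4 at 14.9, MCM2 at 11.4, MCM5 at 5.02 and MCM6 at 4.20. Neighbours in the full order were often close. MCM5 and CDC6, at 36.9 ± 7.02 and 27.4 ± 1.23 CPM (SD, n = 3), lay 1 rank apart at 5.02 and 4.93 CPM per kb. GENCODE 29 supplied the exon lengths, taken over all annotated exons of a gene, and the authors may have used another annotation. Such a length can exceed that of the mRNA expressed. It was 3650 bases for MCM3, 6973 for MCM4 and 7338 for MCM5, so the order per kb depends in part on the annotation. In GENCODE 29, 17 members share exon positions with another gene, 15 of them with a gene on the opposite strand. Their counts are uncertain since the use of strand is not given. These are CCNE2, DBF4, FEN1, GINS2, GINS3, GINS4, LIG1, MCM2, MCM7, POLD1, PRIM1, RFC4, RFC5, RPA1, RRM1, RRM2 and TYMS. Of the 25 overlapping genes 14 were matched by symbol, and for 6 members, CCNE2, FEN1, GINS2, PRIM1, RFC4 and RFC5, one was above the level of the member itself in control. The values of these partners are given with the member, and their part in its counts was not tested. Counts are also uncertain for 8 members with named pseudogene copies, PCNA, RRM2, TYMS, RPA2, RFC3, RFC5, FEN1 and DBF4.

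At 100 µM the group rose almost as a whole, and at 1000 µM most of it fell below control. Of the 42 members, 40 were higher at 100 µM than in control, against 23.6% of all features tested, and none was lower. The median member log2 fold change was 0.80 (all features, -0.01). At 1000 µM 26 members were lower than in control, against 29.1% of all features, and 4 were higher, against 28.5%. The median member log2 fold change there was -0.47 (all features, -0.01). These counts are from edgeR's quasi-likelihood F-test on all 21 libraries, with Benjamini-Hochberg adjustment over all features and a threshold of 0.05, and log2 fold changes are on TMM-scaled counts. Both doses were compared with the same 3 control libraries, all in set A, while no library at either dose was. A model with the library set as a term links set A to the other sets through the 1 µM group alone, where replicate 3 was in set B. With the library set as a term in the model 32 members were higher at 100 µM, against 9.14% of features, and 21 were lower at 1000 µM, against 19.8%. Between doses directly, 40 members were lower at 1000 than at 100 µM, against 22.3% of all features, with a median of -1.30. All 42 differed somewhere among the 7 groups in a joint test, as did 73.6% of all features. In bulk RNA fewer cycling cells and less of these RNAs per cell cannot be told apart.

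**Figure D1:**
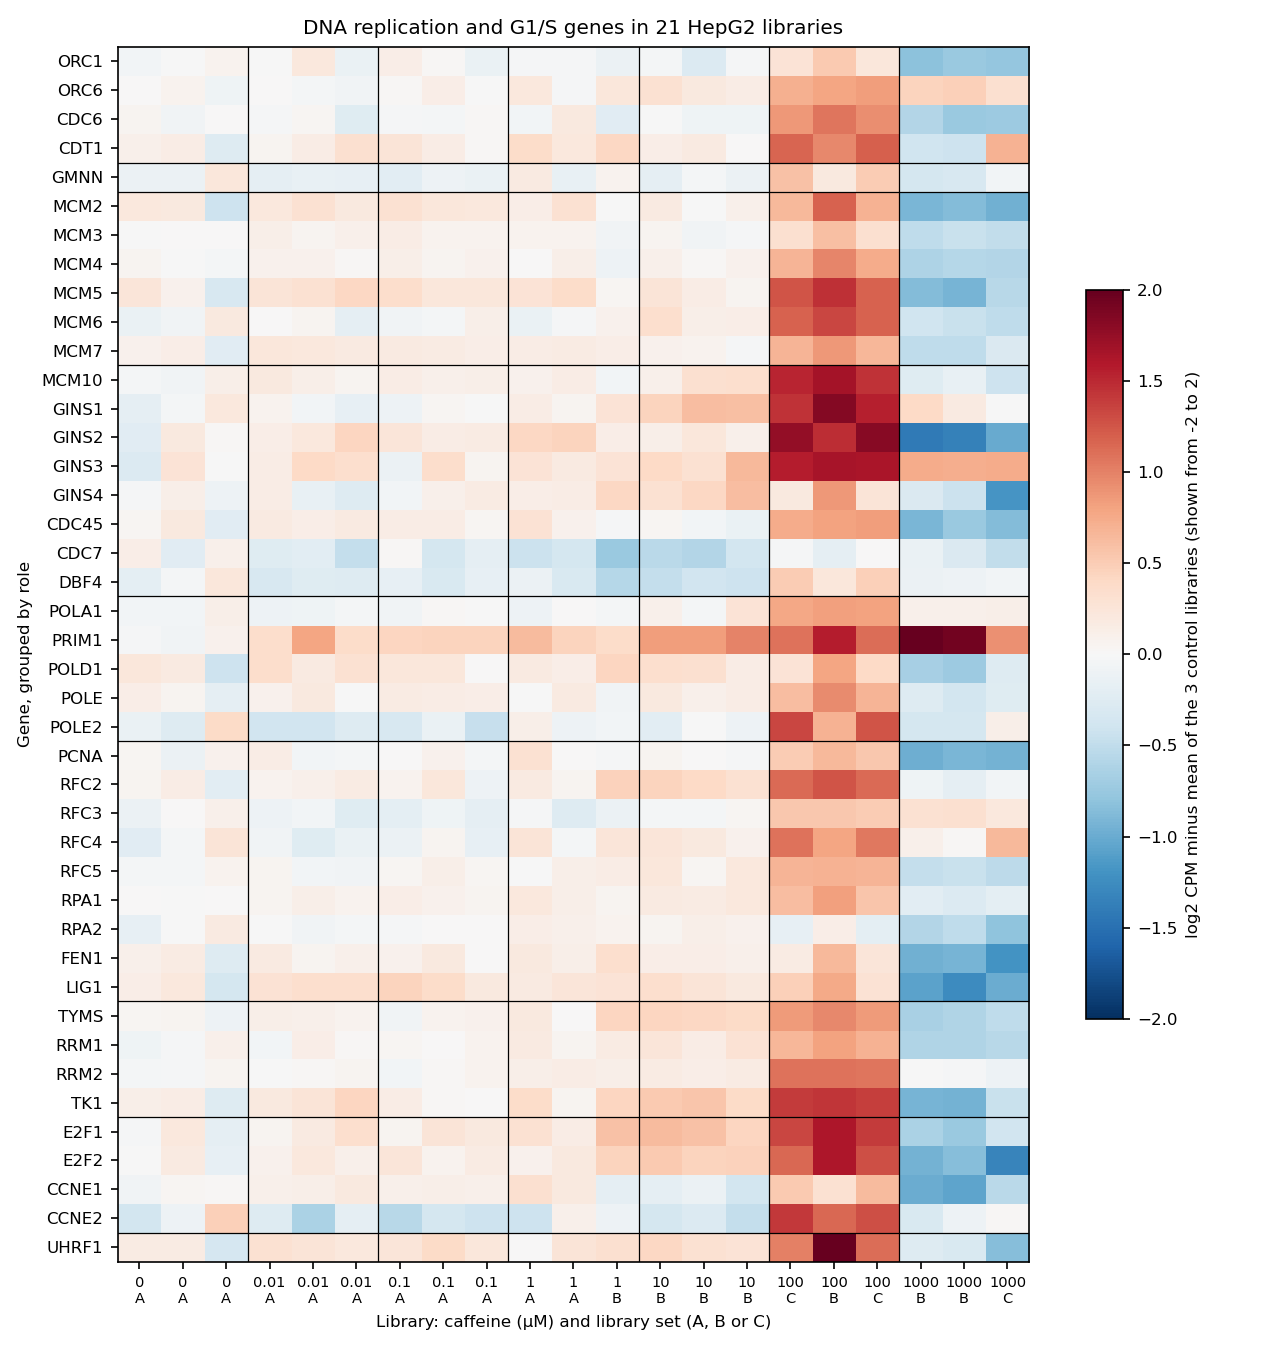
Level of each of the 42 members (rows, by role) in each of the 21 libraries (columns, by caffeine dose in µM and library set), as log2 CPM minus the mean of the 3 control libraries, on a colour scale from -2 to 2. The 3 columns at 100 µM are red for all members but CDC7 and RPA2 and the 3 columns at 1000 µM mostly blue, while ORC6, GINS3, POLA1, PRIM1, RFC3 and RFC4 are above the control mean in all 3 libraries at 1000 µM.

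The libraries of these doses stood apart for most members. All 3 libraries at 100 µM lay above all 3 controls for 38 members, against 25.8% of features, the other members being GMNN, CDC7, DBF4 and RPA2. For 33 members they lay above all 15 libraries from 0 to 10 µM, against 14.7% of features. All 3 libraries at 1000 µM lay below the 3 controls for 25 members, against 28.5% of features. For 25 members they also lay below all 15 libraries from 0 to 10 µM, against 19.3%. All 3 lay below the 3 libraries at 100 µM for 40 members, against 22.9%, and CDC7 and PRIM1 overlapped. By pattern, 25 members were higher at 100 µM and lower at 1000 µM, against 1.66% of all features, and 4 were higher at both doses, against 15.7%, namely GINS3, ORC6, PRIM1 and RFC3. A further 11 were higher at 100 µM and not called at 1000 µM, against 6.31%, namely CCNE2, CDT1, DBF4, GINS1, GMNN, POLA1, POLE2, RFC2, RFC4, RRM2 and UHRF1. RPA2 alone was not called at 100 µM and lower at 1000 µM (12.1% of features), and CDC7 was called at neither dose (29.8%). Summed over the members, the level was 1666 to 1728 CPM in control, 2756 to 3139 CPM at 100 µM and 1281 to 1284 CPM at 1000 µM.

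Among the origin recognition and licensing genes, all 4 rose at 100 µM, and at 1000 µM 2 fell and 1 rose. For this and each role below, 23.6% of all features were higher at 100 µM. At 1000 µM 29.1% were lower and 28.5% higher. The 3 control libraries had 22.2, 23.2 and 20.7 CPM of ORC6, the libraries at 100 µM 36.2, 38.0 and 39.3 CPM and those at 1000 µM 29.9, 30.5 and 27.3 CPM, with 20.9 to 27.2 CPM from 0.01 to 10 µM. ORC6, the smallest subunit of the origin recognition complex, was highest at 100 µM and remained above the controls in every library at 1000 µM. Its log2 fold change was 0.78 ± 0.08 (edgeR adjusted p = 4.49e-07) at 100 µM and 0.41 ± 0.08 (edgeR adjusted p = 0.00034) at 1000 µM. ORC1, a subunit of the same complex that binds ATP, had log2 fold changes of 0.35 and -0.78. CDC6, which loads the helicase with ORC, changed by 0.95 and -0.68 on the log2 scale. With the library set as a term, ORC6 at 1000 µM (0.30, edgeR adjusted p = 0.102), CDC6 at 1000 µM (-0.34, 0.0868) and ORC1 at 100 µM (0.54, 0.0573) were not called. ORC1 at 100 µM was also not called without replicate 2 at that dose, at 0.25.

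CDT1, the partner of CDC6 in loading, rose at 100 µM by 1.10 ± 0.21 on the log2 scale. At 1000 µM it stood at 15.5, 15.3 and 33.3 CPM against 22.0, 22.7 and 17.2 CPM in control. The 2 libraries of set B were below the controls and the 1 of set C above them, and the fold change of 0.04 ± 0.21 was not called. GMNN, the geminin that holds CDT1 inactive after origins have fired, rose at 100 µM with a log2 fold change of 0.43. Its level at 1000 µM, 41.3, 42.3 and 51.0 CPM, overlapped the control level of 48.5, 48.8 and 61.7 CPM. Neither the rise of CDT1 (0.56, edgeR adjusted p = 0.17) nor that of GMNN (0.16, 0.587) was called in the model with a set term, and CDT1 stood at -0.37 (0.28) at 1000 µM. Without replicate 3 at 1000 µM both genes were called lower there, at -0.43 and -0.34.

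All 6 subunits of the MCM helicase rose at 100 µM and all 6 fell at 1000 µM. When library set was a term, the 6 rises were also called, while at 1000 µM MCM3 (-0.28, edgeR adjusted p = 0.0548) and MCM5 (-0.51, 0.0717) were not called lower and the other 4 were. For MCM5 the level was 42.9, 38.5 and 29.1 CPM in control, 86.8, 100.1 and 82.8 CPM at 100 µM and 20, 19.2 and 24.8 CPM at 1000 µM, and it ranged from 37.2 to 48.3 CPM between 0.01 and 10 µM. The 3 libraries at 100 µM were the highest of all 21 and the 3 at 1000 µM the lowest. The log2 fold change of MCM5 was 1.29 ± 0.13 (edgeR adjusted p = 2.16e-07) at 100 µM, -0.79 ± 0.13 (edgeR adjusted p = 3.81e-05) at 1000 µM and -2.08 ± 0.13 (edgeR adjusted p = 3.73e-10) between the doses. MCM2 counts gave 63.9, 63.1 and 41.2 CPM without caffeine, 54.6 to 67.9 CPM over the 4 lower doses, then 86.1, 124 and 88.9 CPM at 100 µM and 29.1, 30.3 and 28.3 CPM at 1000 µM. MCM2, a subunit that CDC7 phosphorylates, changed at 1000 µM by -0.94 ± 0.15 (edgeR adjusted p = 1.89e-05) on the log2 scale, after a rise of 0.83 at 100 µM. Control replicate 3 lay below the other controls for both genes, and without it the MCM2 value at 1000 µM was -1.12. In the fit without a set term MCM6 rose most after MCM5, by 1.23, and at 1000 µM fell by 0.46. MCM3, MCM4 and MCM7 rose by 0.42, 0.80 and 0.73 and then stood at -0.48, -0.60 and -0.44 against control.

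In the fit without a set term, the genes that turn the loaded helicase into a moving fork held the 4 largest rises of the group. Of these genes 7 of 8 were higher at 100 µM, with a group median of 1.17, and at 1000 µM 4 were lower and 1 higher. The order differed within set B against 10 µM, with 1 library at 100 µM. There the largest rise of this role was 1.41, below UHRF1 at 1.70 and the largest among the G1/S regulators at 1.56. The GINS complex (GINS1 to GINS4) joins CDC45 and the MCM hexamer. GINS2 stood at 7.58, 10.2 and 8.97 CPM in the control libraries, 9.47 to 12.0 CPM in the 12 libraries from 0.01 to 10 µM, 30.2, 24.8 and 31.4 CPM at 100 µM and 3.27, 3.44 and 4.35 CPM at 1000 µM. GINS2 had the largest rise of the 42 at 100 µM and the largest fall at 1000 µM in the fit without a set term. Its libraries did not overlap between the 3 groups. Its log2 fold changes were 1.69 ± 0.13 (edgeR adjusted p = 7.69e-09) at 100 µM, -1.28 ± 0.14 (edgeR adjusted p = 2.51e-07) at 1000 µM and -2.97 ± 0.14 (edgeR adjusted p = 6.97e-12) between the doses. GSE1, which overlaps GINS2 on the opposite strand, had 110.3 CPM in control and log2 fold changes of 0.27 and 0.55. The 3 control libraries had 8.95, 9.92 and 11.7 CPM of GINS1, the libraries at 100 µM 27.7, 36.2 and 30.0 CPM and those at 1000 µM 13.4, 11.4 and 10.1 CPM, with 9.08 to 15.6 CPM from 0.01 to 10 µM. GINS1 rose by 1.62 ± 0.13 (edgeR adjusted p = 7.23e-09) on the log2 scale and returned at 1000 µM to 0.20 ± 0.13, which was not called.

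For GINS3 the level was 3.55, 5.19 and 4.26 CPM in control, 12.8, 13.6 and 13.4 CPM at 100 µM and 7.20, 7.16 and 7.17 CPM at 1000 µM, and it ranged from 3.96 to 6.71 CPM between 0.01 and 10 µM. GINS3 rose by 1.61 ± 0.14 (edgeR adjusted p = 3.06e-08) at 100 µM and stayed above all controls at 1000 µM, by 0.72 ± 0.14 (edgeR adjusted p = 0.000197). GINS4, the remaining subunit, moved less, with log2 fold changes of 0.48 and -0.58. Its levels at 100 µM, 12.9, 20.5 and 13.3 CPM, were highest in the library of set B. Without that library, replicate 2, the GINS4 value was 0.22 (edgeR adjusted p = 0.351), and its call at 100 µM was lost in 16 other alternatives, 13 of them with 1 library left out. At 1000 µM it was not called without control replicate 2 (-0.52) or replicate 3 at that dose (-0.36). The 4 subunits of 1 complex thus ended at 1000 µM between -1.28 and 0.72 on the log2 scale, 2 lower, 1 higher and 1 not called.

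MCM10 counts gave 11.7, 11.6 and 13.1 CPM without caffeine, 11.7 to 15.3 CPM over the 4 lower doses, then 34.8, 38.3 and 33.1 CPM at 100 µM and 10.2, 10.9 and 9.04 CPM at 1000 µM. MCM10, which is needed to activate the assembled helicase, rose by 1.55 ± 0.10 (edgeR adjusted p = 4.06e-10) on the log2 scale and at 1000 µM was slightly lower, at -0.27 ± 0.10. CDC45 changed by 0.78 and -0.86. CDC7, the kinase that fires origins, was the 1 member called at neither high dose. Its level was 20.2, 15.7 and 19.8 CPM in control, 18.1, 16.2 and 18.5 CPM at 100 µM and 16.8, 15.1 and 13.1 CPM at 1000 µM. These groups overlapped, and its log2 fold changes were -0.08 ± 0.13 (edgeR adjusted p = 0.667) and -0.30 ± 0.13 (edgeR adjusted p = 0.059). DBF4, the subunit that activates CDC7, was higher at 100 µM by 0.40, although its 3 libraries (43.4, 35.7 and 42.3 CPM) overlapped the controls (26.6, 29.8 and 35.7 CPM). When library set was a term, MCM10 was not called at 1000 µM (-0.04, edgeR adjusted p = 0.863), nor was it without control replicate 3 (-0.21) or replicate 3 at 1000 µM (-0.21). The set term put CDC7 at 0.30 and 0.07, opposite in sign and not called. At 1000 µM 3 single omissions gave CDC7 a lower call, that of control replicate 2 (-0.41), of replicate 3 at 1 µM (-0.30) and of replicate 1 at 1000 µM (-0.39). DBF4 was not called at 100 µM without control replicate 1, at 0.30.

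Among the polymerase and primase genes all 5 rose at 100 µM, and at 1000 µM 2 fell and 1 rose against control, beside 29.1% and 28.5% of all features. PRIM1 stood at 20.3, 19.6 and 21.8 CPM in the control libraries, 26.3 to 41.1 CPM in the 12 libraries from 0.01 to 10 µM, 43.9, 61.1 and 44.5 CPM at 100 µM and 86.8, 78.3 and 38.9 CPM at 1000 µM. PRIM1, the catalytic primase subunit that starts each strand with a short RNA, rose by 1.28 ± 0.21 (edgeR adjusted p = 7.65e-05) at 100 µM and by 1.73 ± 0.21 (edgeR adjusted p = 1.46e-06) at 1000 µM. It was the largest rise of any member at 1000 µM. The 2 libraries of set B there were higher than the 1 of set C, which lay below all 3 libraries at 100 µM. The value without that library was 2.0. In GENCODE 29 the exons of PRIM1 overlap those of NACA, a subunit of the nascent polypeptide-associated complex, on the same strand. NACA had a mean of 280.3 CPM in control and log2 fold changes of 0.49, 0.72 and 0.87 at 10, 100 and 1000 µM. How reads shared by both were counted is not given in the sources used here, and the part of NACA in the PRIM1 counts was not tested.

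POLA1, of the polymerase that works with primase, rose by 0.80 and was at 0.11 at 1000 µM, which was not called. POLE and POLD1, of the leading and lagging strand polymerases, rose by 0.75 and 0.48 and were lower at 1000 µM, at -0.30 and -0.57. POLE2, the second subunit of the POLE enzyme, rose by 1.11 from one of the lowest levels in the group and was not called at 1000 µM, at -0.20. The rise of POLD1 (0.24, edgeR adjusted p = 0.643) and the fall of POLE (-0.10, 0.683) were not called once the library set was a term. POLD1 at 100 µM was also not called without control replicate 3 (0.32) or replicate 2 at 100 µM (0.31), nor POLE at 1000 µM without control replicate 1 (-0.23) or replicate 2 at 1000 µM (-0.26).

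The clamp, its loader, the single-strand binding protein RPA and the enzymes of Okazaki fragment processing had 8 of 9 genes higher at 100 µM, with a median of 0.57, and 6 of the 9 were lower at 1000 µM. The 3 control libraries had 198, 178 and 205 CPM of PCNA, the libraries at 100 µM 275, 304 and 280.3 CPM and those at 1000 µM 98.5, 103 and 101 CPM, with 185 to 239 CPM from 0.01 to 10 µM. PCNA, the ring that tethers polymerases to DNA, changed by -0.94 ± 0.09 (edgeR adjusted p = 3.12e-08) at 1000 µM, where its 3 libraries lay close together and below every other library. Its rise at 100 µM was 0.57 ± 0.09. For LIG1 the level was 34.4, 36 and 24.6 CPM in control, 43.6, 53.1 and 38.3 CPM at 100 µM and 14.9, 13.0 and 15.7 CPM at 1000 µM, and it ranged from 35.3 to 42.5 CPM between 0.01 and 10 µM. LIG1, the ligase that seals the fragments, and FEN1, the nuclease that trims their flaps, stood further below control at 1000 µM than above it at 100 µM.

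The log2 fold change of LIG1 was 0.50 ± 0.13 at 100 µM and -1.13 ± 0.13 (edgeR adjusted p = 5.50e-07) at 1000 µM. FEN1 counts gave 58.9, 61.1 and 45.5 CPM without caffeine, 54.9 to 69.1 CPM over the 4 lower doses, then 61.4, 85.8 and 64.6 CPM at 100 µM and 28.0, 28.7 and 23.9 CPM at 1000 µM. For FEN1 the 2 libraries of set C at 100 µM lay just above the highest control, and that of set B well above it. Its log2 fold change was 0.36 ± 0.12 at 100 µM and -1.04 ± 0.12 (edgeR adjusted p = 7.48e-07) at 1000 µM. RPA2 was the one gene of this role without a rise, at -0.07 ± 0.10 (edgeR adjusted p = 0.576), and it fell to -0.64 ± 0.10 at 1000 µM. RPA1, the large subunit of the same trimer, rose by 0.67 and then stood at -0.23. When library set was a term, LIG1 (0.53, edgeR adjusted p = 0.138) and FEN1 (0.39, 0.129) were not called at 100 µM, nor RPA1 at 1000 µM (-0.09, 0.57), and RPA2 stood at 0.16 at 100 µM. FEN1 at 100 µM was also not called without control replicate 3 (0.25) or replicate 2 at 100 µM (0.19). FADS2, a fatty acid desaturase that shares exon positions with FEN1 on the same strand, had 169 CPM in control and log2 fold changes of 0.96 at 100 µM and -2.84 at 1000 µM.

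Of the clamp loader subunits, RFC2, RFC4 and RFC5 rose by 1.16, 0.97 and 0.69 on the log2 scale, and at 1000 µM RFC5 alone of the 3 was lower, at -0.49. RFC3 stood at 31.8, 34.5 and 36.9 CPM in the control libraries, 28.8 to 35.4 CPM in the 12 libraries from 0.01 to 10 µM, 50.1, 49.8 and 48.9 CPM at 100 µM and 42.6, 42.8 and 39.6 CPM at 1000 µM. RFC3 was above the controls in every library at both doses, with log2 fold changes of 0.53 ± 0.08 (edgeR adjusted p = 2.61e-05) and 0.28 ± 0.08 (edgeR adjusted p = 0.0059). With only the control and 1000 µM libraries in the fit, the second was no longer called, at an edgeR adjusted p of 0.0623. With the library set as a term it was not called either (0.28, edgeR adjusted p = 0.132), nor was RFC4 at 100 µM (0.55, 0.0856), and RFC2 was called lower at 1000 µM (-0.46, 0.0481). Without control replicate 3 RFC4 was called higher at 1000 µM, at 0.41. EIF4A2, an RNA helicase of translation that overlaps RFC4 on the opposite strand, had 149.8 CPM in control against 16.0 CPM of RFC4, and log2 fold changes of 0.99 and 1.70 at the 2 doses. WSB2, opposite RFC5, had 96.5 CPM and changes of -0.59 and -0.40.

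All 4 genes of nucleotide supply rose at 100 µM and 3 of them fell at 1000 µM, and these 7 calls were also made when library set was a term. The 3 control libraries had 24.5, 25.2 and 18.9 CPM of TK1, the libraries at 100 µM 59.9, 61.4 and 59.3 CPM and those at 1000 µM 11.8, 11.7 and 16.7 CPM, with 22.7 to 33.2 CPM from 0.01 to 10 µM. TK1, the thymidine kinase of S phase, differed by -2.17 ± 0.14 (edgeR adjusted p = 3.20e-10) between the 2 doses. Its replicate 3 at 1000 µM, in set C, lay above the other 2 libraries and below every other dose. TYMS, which makes thymidylate, and RRM1, the large subunit of ribonucleotide reductase, rose by 0.89 and 0.73 and then stood at -0.59 and -0.59. For RRM2 the level was 99.8, 100.1 and 106 CPM in control, 216, 217 and 214 CPM at 100 µM and 101, 100.3 and 95.4 CPM at 1000 µM, and it ranged from 98.7 to 114 CPM between 0.01 and 10 µM. RRM2, the small and cell cycle controlled subunit of the same enzyme, was tightly grouped, with log2 fold changes of 1.08 ± 0.06 (edgeR adjusted p = 7.14e-11) and -0.04 ± 0.06 (edgeR adjusted p = 0.544). At 1000 µM it overlapped the control level, while RRM1 lay below it.

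Of the G1/S regulators all 4 rose at 100 µM, with a group median of 1.32, and 3 fell at 1000 µM. E2F1 counts gave 13.4, 15.8 and 12.0 CPM without caffeine, 14.1 to 21.2 CPM over the 4 lower doses, then 34.7, 42.1 and 36.1 CPM at 100 µM and 8.83, 8.11 and 10.4 CPM at 1000 µM. E2F1, an activating E2F factor and itself an E2F target, rose by 1.45 ± 0.13 (edgeR adjusted p = 5.39e-08) at 100 µM, fell to -0.60 ± 0.13 (edgeR adjusted p = 0.000799) at 1000 µM and differed by -2.05 ± 0.13 between the doses. E2F2 stood at 9.26, 10.5 and 8.28 CPM in the control libraries, 9.79 to 13.4 CPM in the 12 libraries from 0.01 to 10 µM, 20.6, 28.7 and 22.8 CPM at 100 µM and 4.80, 5.14 and 3.69 CPM at 1000 µM. E2F2, its close relative, had log2 fold changes of 1.36 ± 0.13 at 100 µM, -1.04 ± 0.14 (edgeR adjusted p = 4.09e-06) at 1000 µM and -2.40 ± 0.14 (edgeR adjusted p = 1.21e-10) between the doses. No library at 1000 µM reached the lowest control for either gene.

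CCNE1 and CCNE2 are the E cyclins that switch on the kinase CDK2. CCNE1 stood at 21.1, 22.9 and 22.7 CPM in control, 32.1, 27.5 and 34.4 CPM at 100 µM and 11.2, 10.7 and 15.3 CPM at 1000 µM, with log2 fold changes of 0.49 and -0.85. CCNE2, the least expressed member, stood at 1.35, 1.64 and 2.45 CPM in control, 4.80, 3.99 and 4.37 CPM at 100 µM and 1.40, 1.63 and 1.78 CPM at 1000 µM. Its rise of 1.28 ± 0.20 was called, and its value of -0.17 ± 0.21 at 1000 µM was not. In the model with a set term the rise was not called, at 1.11 (edgeR adjusted p = 0.0512), the 1 such loss among the G1/S regulators and UHRF1. INTS8, opposite CCNE2, had 40.1 CPM in control and log2 fold changes of 0.13 and 0.05, which were not called. The 3 control libraries had 30.4, 30.4 and 21.3 CPM of UHRF1, the libraries at 100 µM 54.6, 110.5 and 58.5 CPM and those at 1000 µM 22.6, 21.9 and 15.0 CPM, with 27.0 to 35.9 CPM from 0.01 to 10 µM. UHRF1, which guides maintenance methylation to newly copied DNA, rose by 1.45 ± 0.21 (edgeR adjusted p = 2.68e-05), and without replicate 2 at 100 µM, its highest library, by 1.04. It differed by -1.91 ± 0.22 (edgeR adjusted p = 1.37e-06) between the 2 doses. At 1000 µM it was not called, but was called lower without control replicate 3 (-0.61) and without replicate 1 or 2 at 100 µM (-0.47 each). The replicate number as a block also gave it a lower call there, at -0.46.

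**Figure D2:**
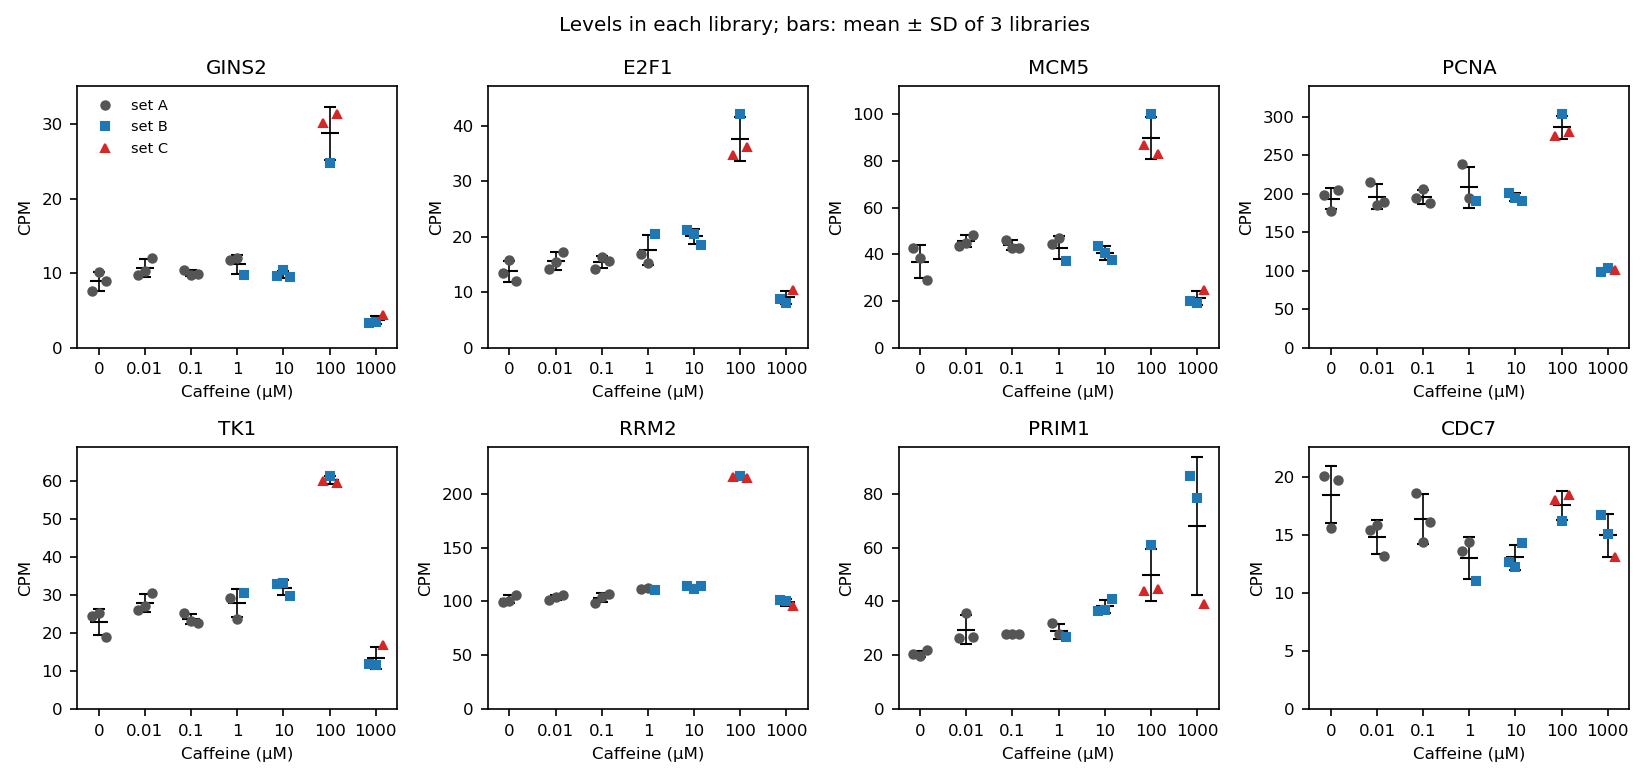
Level in CPM (vertical axis, from 0) of GINS2, E2F1, MCM5, PCNA, TK1, RRM2, PRIM1 and CDC7 in every library, by caffeine dose in µM, with symbols for the 3 library sets and bars for the mean ± SD of 3 libraries. The first 5 peak at 100 µM and are lowest at 1000 µM, RRM2 peaks at 100 µM alone, PRIM1 is highest in 2 libraries at 1000 µM and CDC7 shows no such peak.

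**Figure D3:**
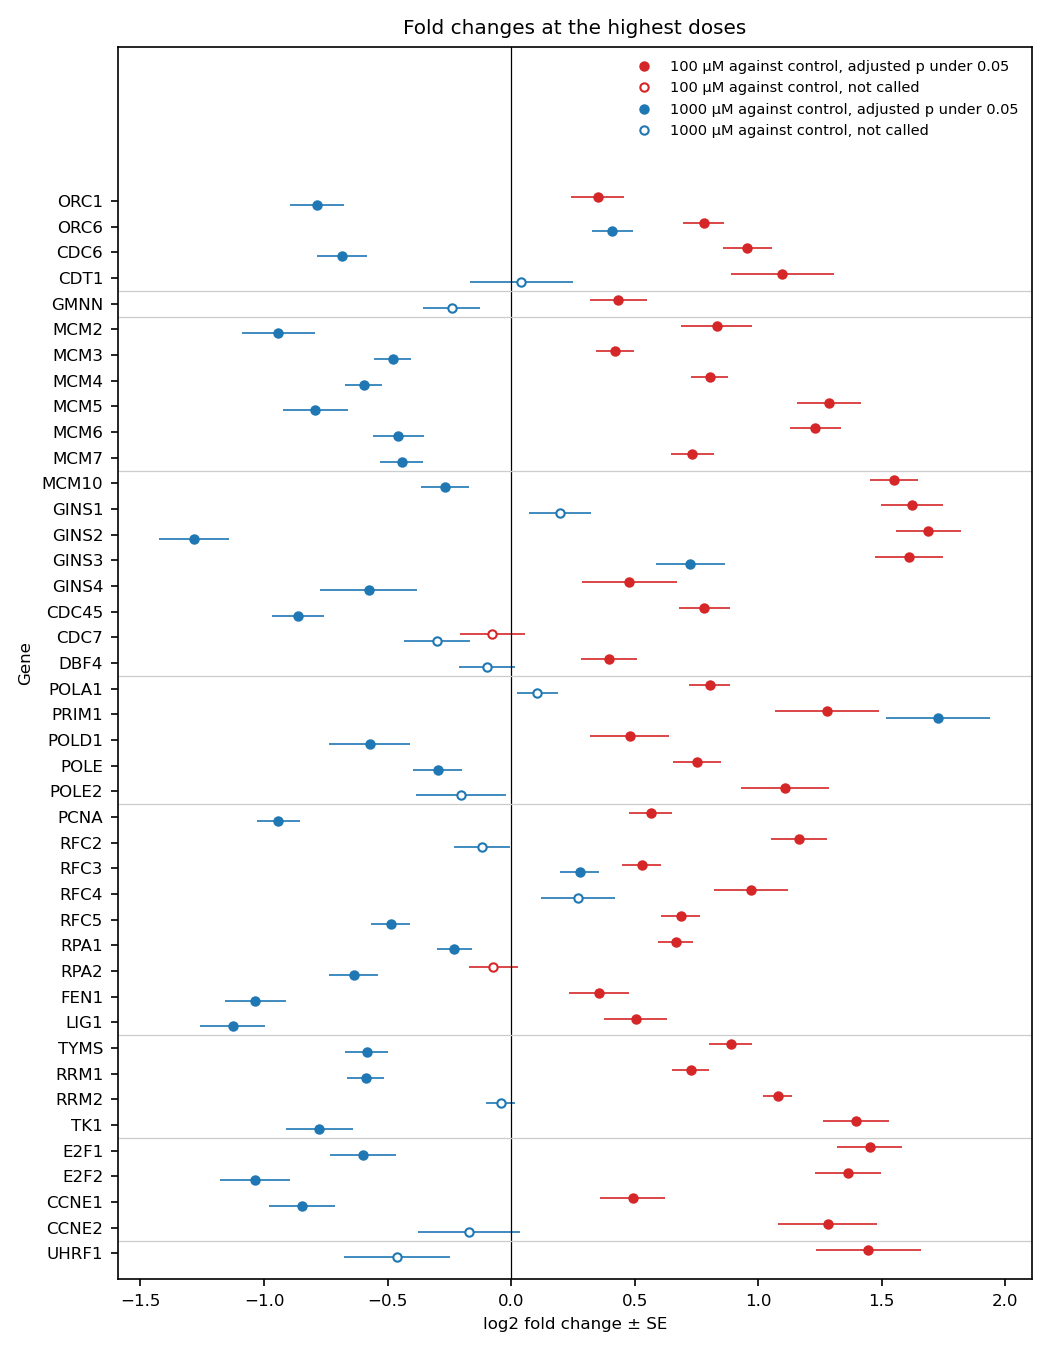
Log2 fold change against control ± SE (horizontal axis) of each member at 100 µM (red) and 1000 µM (blue), grouped by role, with filled points for an adjusted p under 0.05 and n = 3 libraries a group. The red points of 40 members lie right of 0 and filled, and the blue points run from GINS2 at -1.28 to PRIM1 at 1.73.

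Few or no members were called at the lower doses. None was called by edgeR at 0.01 µM (0.0279% of all features called), at 0.1 µM (0%) or at 1 µM (0.106%). At an unadjusted p under 0.05 there were 7, 3 and 8 members, against 15%, 9.48% and 15.7% of all features. DESeq2's Wald test called 0, 0 and 1 member at these doses, against 386, 53 and 410 of all 17951 features. The median member log2 fold changes were 0.08, 0.07 and 0.13. At 10 µM 9 members were higher, against 7.27% of features, and 2 were lower, against 7.49%. These 11 calls fell to 3, 5 and 6 without replicates 1, 2 and 3 at 10 µM, and to 6 and 7 without control replicates 1 and 3. Calls over all features fell as well, from 2650 to 1039 without replicate 1 at 10 µM. The members higher were TYMS, GINS1, PRIM1, E2F1, TK1, E2F2, RFC2, GINS3 and RRM1, and those lower were DBF4 and CDC7.

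At 10 µM TYMS stood at 132, 129 and 127 CPM against 100.3, 100.5 and 91.0 CPM in control, a log2 fold change of 0.41 ± 0.09 (edgeR adjusted p = 0.00647). Replicate 3 at 1 µM, the only library below 10 µM in set B, had 132 CPM, close to those at 10 µM, whereas replicates 1 and 2 at 1 µM had 111 and 98.1 CPM. GINS1 stood at 13.9, 15.6 and 15.4 CPM at 10 µM and PRIM1 at 36.6, 36.9 and 41.1 CPM, with log2 fold changes of 0.55 ± 0.12 (edgeR adjusted p = 0.00855) and 0.89 ± 0.21 (edgeR adjusted p = 0.0108). All 3 libraries at 10 µM lay above the controls for each of these genes. Since all libraries at 10 µM were in set B and all controls in set A, among the doses up to 10 µM the 2 were separated only by replicate 3 at 1 µM, the 1 library of set B below 10 µM. With the library set as a term in the model no member was called at 10 µM, where only 0.0279% of all features were. The values were 0.08 for TYMS, 0.38 for GINS1 and 1.06 for PRIM1. The same model called 1 member at 0.01 µM, PRIM1, against 3.02% of all features.

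The difference between 100 and 1000 µM can be read within library sets, since sets B and C each hold both doses. In set B (1 library at 100 µM, 2 at 1000 µM) 39 members were lower at 1000 µM, against 23.2% of features, with a median of -1.38, and PRIM1 was higher. In set C (2 libraries and 1) 40 were lower, against 13.1%, with a median of -1.20. GINS2 differed by -2.89 ± 0.15 within B and -2.82 ± 0.18 within C, and E2F2 by -2.53 ± 0.13 and -2.55 ± 0.16. CDC7 and RFC3 were not called in set B, nor PRIM1 and RFC4 in set C. No member had differences that were unequal between the sets after adjustment (edgeR, 0.0947% of features called), although 11 did at an unadjusted p under 0.05, against 16.2% of features. The largest of these were CDT1, at -1.38 ± 0.14 for set B against -0.48 ± 0.15 for set C, POLD1, at -1.49 ± 0.17 and -0.60 ± 0.19, and PRIM1, at 0.44 ± 0.15 and -0.18 ± 0.15. A single library is assumed in this fit to vary like the other groups.

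**Figure D4:**
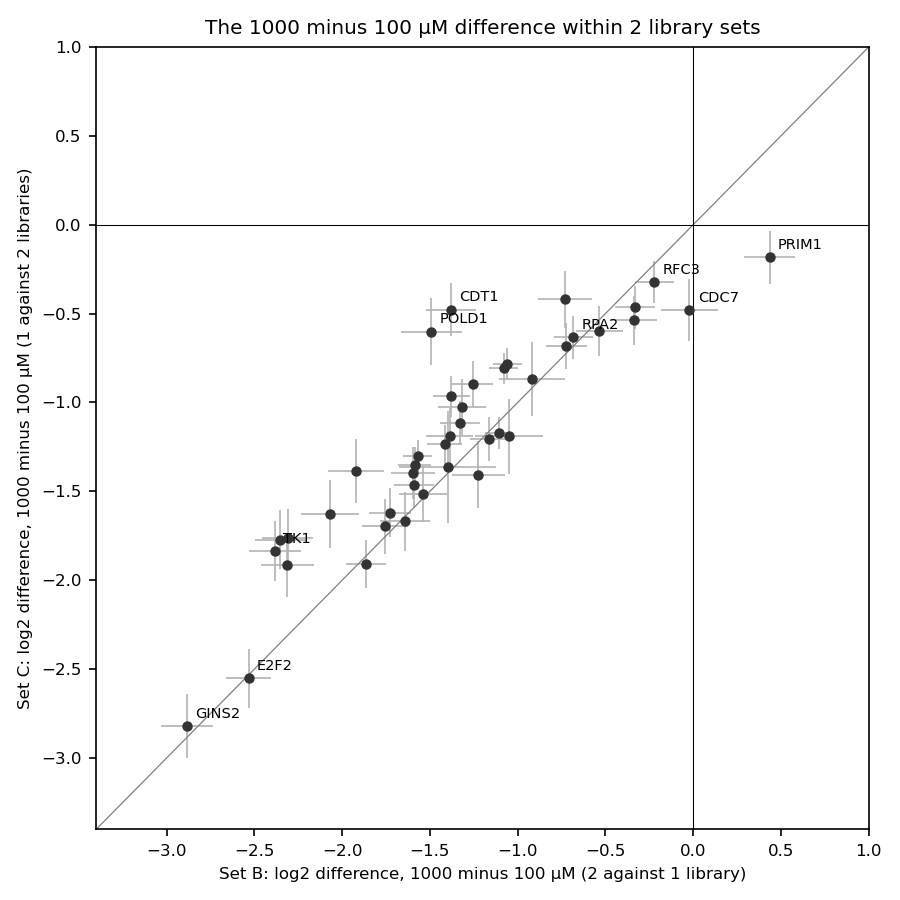
Difference in log2 expression between 1000 and 100 µM for each member within library set B (horizontal axis) and set C (vertical axis), with bars for ± SE and the line of equal differences. The points run along the line from PRIM1 at 0.44 and -0.18 to GINS2 at -2.89 and -2.82, and CDT1 and POLD1 lie furthest above it.

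Within set B both high doses can also be set against 10 µM. The 100 µM side is then 1 library, replicate 2, which was the highest of the 3 at that dose for 30 of the 42 members and is assumed to vary like the other groups. At 100 µM 39 members were higher than at 10 µM, against 13.2% of features, with a median of 0.75, the other members being GMNN, CDC7 and RPA2. At 1000 µM 31 were lower than at 10 µM, against 30.4% of features, and 4 were higher, against 29.7%, with a median of -0.61. Those higher were PRIM1, GINS3, RFC3 and ORC6. GINS2 was 1.33 ± 0.13 at 100 µM and -1.56 ± 0.13 at 1000 µM relative to 10 µM, and PRIM1 0.68 ± 0.13 and 1.11 ± 0.11.

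Most members rose at 100 µM whether or not their window held an E2F word. Of the 21 with a word, 20 were higher at 100 µM and 12 lower at 1000 µM, with median log2 fold changes of 0.89 and -0.46. Of the 16 without, 16 were higher and 10 lower, with medians of 0.75 and -0.38. Over all 716 tested genes with a word, 34.4% were higher at 100 µM, with a median of 0.08, and over the 10443 without one 26.5% were, with a median of 0.01. At 1000 µM 30.3% of those with a word and 31.6% of those without were lower. CDC7, with 2 words in the window printed above, was called at neither high dose, and PRIM1, with none, rose most at 1000 µM. No test was made of these differences.

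Other genes of the pathway, listed by function, moved with the members at 100 µM and less uniformly at 1000 µM. Of 64 other genes of replication, nucleotide supply and the E2F and RB pathway, 46 were higher and 3 lower at 100 µM, against 23.6% and 22.9% of all features, with a median log2 fold change of 0.57. At 1000 µM 21 were higher and 26 lower, with a median of -0.08, against 28.5% and 29.1% of all features. RBL1, the p107 relative of the retinoblastoma protein, stood at 6.23, 6.18 and 7.13 CPM in control, 43.6, 45.8 and 42.9 CPM at 100 µM and 25.8, 25.7 and 22.0 CPM at 1000 µM, with log2 fold changes of 2.76 and 1.91. Neither dose overlapped the controls. POLD3, a subunit of the POLD1 enzyme, E2F8, a repressing E2F factor, and DTYMK, the thymidylate kinase, rose by 1.70, 1.69 and 1.67 at 100 µM.

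Those lower at 100 µM were MCM9, POLD4 and ORC5, at -0.75, -0.74 and -0.35. At 1000 µM the largest falls were in E2F7, another repressing factor, at -1.36, CLSPN, the claspin of the replication checkpoint, at -1.29, the histone chaperone subunit CHAF1A, at -1.06, and the primase partner POLA2, at -0.92. RIF1, which times replication, and the histone chaperones SSRP1 and ASF1A were higher there, at 1.28, 1.23 and 1.14. At 10 µM 6 of the 64 were higher and 4 lower, against 7.27% and 7.49% of all features, shares close to those of the list. Between 100 and 1000 µM, 47 were lower at 1000 µM and 7 higher, against 22.3% and 21.8% of all features.

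Genes of mitosis also rose at 100 µM, and at 1000 µM more of them were above control than below it. Of 36 such genes 30 were higher and 1 lower at 100 µM, with a median of 0.92 (all features, 23.6% and 22.9%), and 19 were higher and 4 lower at 1000 µM, with a median of 0.35 (28.5% and 29.1%). BIRC5, the survivin of the chromosomal passenger complex, was at 2.28 and 1.44, and CENPA, the centromeric histone, at 1.77 and 1.41. MYBL2 and HMMR showed the largest falls at 1000 µM, at -1.31 and -0.99. Within set B, 1000 against 10 µM, 19 mitosis genes were higher and 6 lower, beside 4 and 31 members, and 29.7% and 30.4% of all features. Per library, the median over genes of log2 CPM minus the control mean was -0.44 to -0.46 for the members at 1000 µM, and 0.31 to 0.43 for the mitosis genes, with no overlap. At 100 µM it was 0.73 to 0.87 for the members and 0.91 to 0.99 for the mitosis genes.

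**Figure D5:**
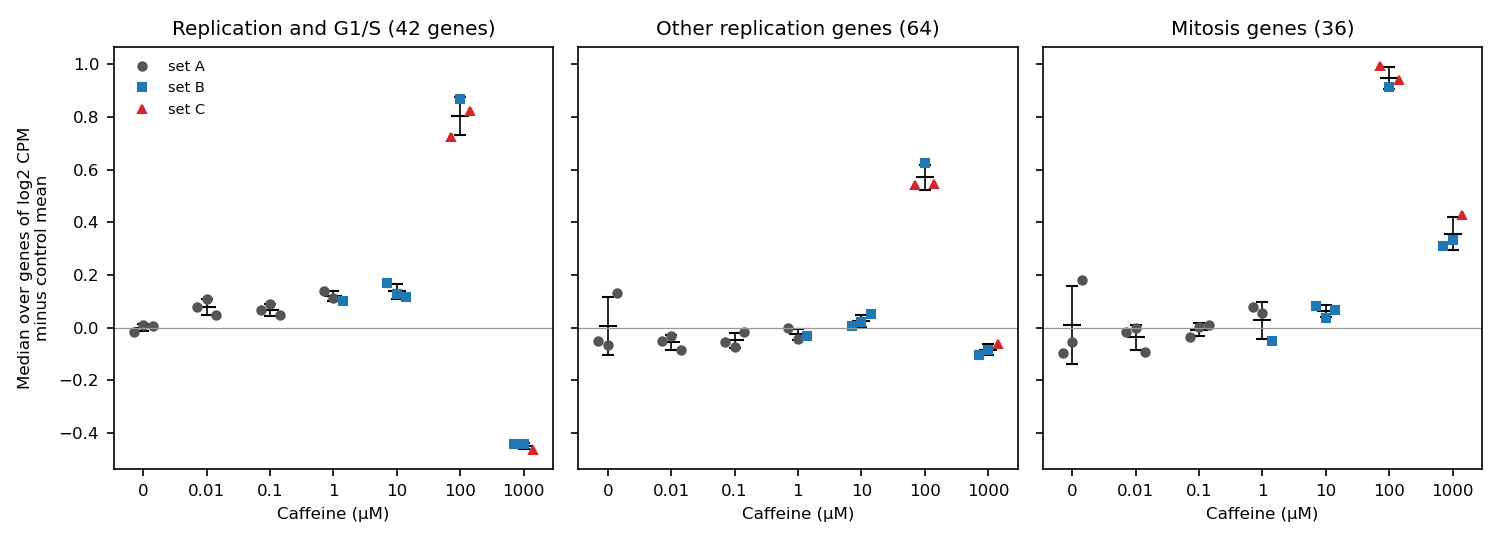
Median over the genes of a list of log2 CPM minus the control mean (vertical axis) in each library, by caffeine dose in µM, for the 42 members, the 64 other replication genes and the 36 mitosis genes, with symbols for the library sets and bars for the mean ± SD of 3 libraries. All 3 lists peak at 100 µM. At 1000 µM the members lie below 0, the other replication genes near it and the mitosis genes above it.

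Markers of the cells also differed at the doses where the members did. The hepatocyte and hepatoma sum was 37160 to 44870 CPM in control, 36180 to 37860 CPM at 100 µM and 30180 to 31540 CPM at 1000 µM. ALB and AFP, the albumin and fetoprotein of these cells, fell by 0.54 and 0.61 on the log2 scale at 100 µM and by 0.98 and 1.40 at 1000 µM, while APOB rose by 0.52 and 0.71. KRT19, a keratin of bile duct cells, fell by 0.84 and 1.58, and KRT7 was at no more than 0.0213 CPM throughout. Of the 4 fibroblast and stellate markers PDGFRB alone was above 0.0591 CPM. The sum of the 4 was 3.18 to 3.79 CPM in control, 5.51 to 6.44 CPM at 100 µM and 18.2 to 23.5 CPM at 1000 µM. Their part in the members' results was not tested.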

How the data were processed

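Gene-level RNA sequencing counts from 21 HepG2 libraries were used, as whole-number read counts per feature deposited by the authors without normalization. HISAT2, the build GRCh38 and DESeq2 are named without roles, per the submitters' processing notes. The counting tool, annotation release, use of strand and filters are not given in the sources used here. Another 21 columns with values of samples were left unused.

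Samples were grouped by the dose in their titles. Low counts were removed by filterByExpr (edgeR, by group), and counts were scaled by TMM and tested in edgeR 4.0.16 (R 4.3.3) by the robust quasi-likelihood F-test, 2-sided, with a mean per group over all 21 libraries. P-values were adjusted by Benjamini-Hochberg over 17951 features. Standard errors (SE) were computed as the size of the log2 fold change divided by the root of F. CPM used TMM-scaled library sizes, and log2 CPM a prior count of 2. Within-set values came from a fit with a mean per group and library set. Sets came from average-linkage clustering of the mitochondrial mRNAs, with the number of clusters at the highest mean silhouette (0.675 for 3, 0.637 for 2). The scripts were tested on simulated data.

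The 42 members and the other lists were chosen with earlier results of these data known. Values in every library were given for the 6 called members with the largest change in each direction at 100 and 1000 µM and between them, and for up to 3 called members with the smallest p at lower doses. From each related list up to 4 genes per direction were eligible. Other members were given by role, and some were shown in full after their values were seen.

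Alternatives were DESeq2 size factors, DESeq2 1.42.0 with its Wald test, no filter beyond 1 count in any library, a mean of at least 5 CPM, only the 2 groups compared, the replicate number as a block, the library set as a term, values within sets and each library left out. Replicate numbers did not pair samples across groups. The mean correlation of same-numbered deviations ran from -0.11 to 0.15 over 21 pairs of groups, and in 0 pairs was every correlation over 0.1. No 2 replicates agreed within counting noise, with a chi-square per feature of at least 3.59. Counting error is one part of the spread, and without molecular identifiers reads cannot be taken as separate molecules. Promoter windows were matched to RefSeq by symbol. Positions and exon lengths were matched to GENCODE 29 by identifier without its version, since 66.5% of the identifiers had the same version there.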

Additional observations from a re-analysis of the deposited data

How the results depend on the processing

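Over all 42 members at 10, 100 and 1000 µM and between the highest doses, no called value changed sign under any alternative, while 114 of 3468 called values lost their call and 24 others gained one. Values that were not called changed sign in 34 cases, among them CDC7, RPA2 and CDT1 above. With the library set as a term 11 calls were lost at 10 µM, 8 at 100 µM and 8 at 1000 µM, and 0 between the highest doses. With only the 2 groups compared 3 were lost at 100 µM (FEN1, GINS4 and POLD1) and 6 at 1000 µM (GINS4, MCM10, POLD1, POLE, RFC3 and RPA1), and with no filter 1 (GINS4) and 3 (MCM10, POLE and RPA1). Leaving out 1 library ended 20 of 840 calls at 100 µM and 6 of 630 at 1000 µM. Most of these omissions were of libraries outside the 2 groups compared, where little change in a fold change could be expected. Of the medians of the members 29 of 226 moved by more than the SD between replicates. The median was -0.42 at 1000 µM and -1.26 between the highest doses with the set as a term, and -1.38 and -1.20 within sets B and C. The cause of these changes was not tested. Of the counts of members, 243 of 253 stayed within 1.5 times. Among these were the counts at 0.01, 0.1 and 1 µM, nearly all at 0, and those of the joint test. With the set as a term 1 member was called at 0.01 µM and 0 at 10 µM. DESeq2's Wald test called 1 at 1 µM. Within set A 1 was called at 0.01 µM and 1 at 1 µM, PRIM1 each time. Leaving out 1 library gave 0 members at 0.01, 0.1 and 1 µM. It gave 3 to 12 members at 10 µM, between 36 and 40 for 100 µM, between 29 and 31 for 1000 µM, 40 to 41 between these doses, 42 in the joint test and 31 to 36 at 1000 against 10 µM in set B. At 10 µM the count was 6 without control replicate 1, 7 without control replicate 3, and 3, 5 and 6 without replicates 1, 2 and 3 at 10 µM. With the replicate block the counts were 0, 0, 0, 9, 39 and 31 in order of dose, 40 between the highest doses, 42 in the joint test and 33 in set B, and it moved no count of members by over 1.5 times.

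The number of all features called was less steady. At 0.01, 0.1, 1, 10, 100 and 1000 µM it was 5, 0, 19, 2650, 8358 and 10342, and with the set as a term 542, 4, 113, 5, 3114 and 6829. DESeq2's Wald test called 386, 53 and 410 at the 3 lowest doses, and set A alone 1060, 98 and 377. With no filter it was 2, 1 and 0 there and 1748 at 10 µM, with at least 5 CPM 10 and 57 at 0.01 and 1 µM, with 2 groups 12 and 4, with DESeq2 size factors 11 at 1 µM, and with the replicate block 0 at both. Leaving out 1 library gave 0 to 21, 0 to 1, 0 to 119 and 1039 to 3519 at the 4 lower doses. At 1000 against 100 µM 7906 were called, 4734 within set C and 5322 with 2 groups. DESeq2 size factors moved the median of all features by under 0.1 on the log2 scale. Low counts limit CCNE2 most, and with at least 5 CPM it was not tested.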
